A study of Arabidopsis thaliana with 5 samples.

Results

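AT4G33560, AT2G17850 and AT4G17670 are 3 nuclear genes of Arabidopsis thaliana that belong to the low-oxygen core, the set of transcripts that many cell types of this plant raise when oxygen runs short. They were chosen by locus among the measured members of that set outside carbon metabolism, with earlier results of these data known. Each was measured by 1 probe set. They are thus 3 of the 3592 genes named on the array and 3 of the 8247 probe sets tested. AT4G33560 encodes a small protein of the wound-responsive family, whose biochemical function is not known. AT2G17850 encodes a protein with a rhodanese domain, the fold of sulfurtransferases. AT4G17670 encodes a protein of the FCS-like zinc finger family, several members of which bind the energy-sensing kinase SnRK1.

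The low-oxygen core is known to be switched on by transcription factors of the ERF-VII group. In air these factors are oxidised at the amino terminus and degraded, and when oxygen falls they are spared and enter the nucleus. The best known targets are enzymes of ethanolic fermentation, which let glycolysis go on without respiration, but many others are proteins whose task in low oxygen is poorly understood, and the 3 genes described here are of that kind.

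Whole seedlings of ecotype Col-0, aged 14 days and raised on agar plates at 22 °C with 16 h of light a day, gave the RNA. Hypoxic seedlings lay in plastic bags flushed with 0.2% oxygen and 99.8% nitrogen for 30, 60 or 240 min, and air seedlings were taken at 0 and 240 min, with 1 array for each of these 5 conditions. No mutant, transgene or further agent is named for any of them. Expression is given as the deposited RMA value, a log2 measure of a probe set's brightness after background correction and normalization across arrays, and differences are on that log2 scale, where 1 is a 2-fold change.

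The 5 arrays differed in their control probe sets. The array medians lay between 5.12 and 5.14. Across probe sets, which share their arrays, the 240 min hypoxic array correlated at 0.89 to 0.93 with the other 4 and the air arrays at 0.99 with each other. On that array 4 mouse control probe sets read 5.27 to 6.68, against 4.81 to 5.55 on the others. The 4 yeast control probe sets were not raised there, at 4.81 to 5.06, against 4.57 to 5.12 on the others. GAPDH read higher at its 3′ than at its 5′ probe set by 1.97, against −0.23 to 0.69. Of 6 shoot markers 4 were measured, and RCA, LHCB4.1 and PSAN read 10.2 to 14.7 on every array while LHCB4.3 read 4.77 to 5.40. Their summed level was 14.2, 15.4 and 15.6 after 30, 60 and 240 min of hypoxia, against 15.3 and 15.4 at 0 and 240 min in air. The brightest markers carry that sum, and PSAN alone read 10.23, 10.25 and 11.91 after 30, 60 and 240 min of hypoxia, against 11.68 and 11.75 at 0 and 240 min in air. None of the 10 root markers was measured by a named probe set, so the root share of these seedlings is not known.

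AT4G33560 varied most of the 3 genes. It read 5.87 after 30 min of hypoxia, 8.48 after 60 min and 4.64 after 240 min, against 7.30 at 0 min and 8.63 at 240 min in air. The 60 min hypoxic array and the 240 min air array were thus the high ones and the 240 min hypoxic array the lowest, and the hypoxic range held the 0 min air value. In falling order the levels were 240 min air, 60 min hypoxia, 0 min air, 30 min hypoxia and 240 min hypoxia. The top pair lay 0.15 apart, within the spread of the air arrays, whose differences over all probe sets had an SD of 0.22. Every other step in the order was 1.18 to 1.43, more than 2 SD, or 0.44. Among the 500 probe sets nearest to it in air level the SD was 0.33. In whole seedlings a lower value from fewer cells that carry the transcript and one from less transcript per cell cannot be told apart.

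AT2G17850, the rhodanese gene, was dim on every array. It read 4.43, 5.34 and 4.34 after 30, 60 and 240 min of hypoxia, against 4.49 and 4.78 at 0 and 240 min in air. The 60 min hypoxic array was the highest, by 0.56 over the 240 min air array, and this was its only step over 0.44. The remaining 4 arrays lay within 0.06 to 0.29 of their neighbours in the order. It was above the array median only at 60 min.

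AT4G17670, the zinc finger gene, was nearly level. It read 4.89, 5.15 and 4.97 after 30, 60 and 240 min of hypoxia, against 5.14 and 5.03 at 0 and 240 min in air. All 5 values fell within 0.26 of each other, and no neighbours in the order were more than 0.11 apart. No array can therefore be called high or low for this gene.

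How far these readings stand above background was judged from 8 control probe sets for mouse and yeast transcripts, since detection calls were not used here. They spanned 4.57 to 5.17, 4.81 to 5.55 and 4.81 to 6.68 on the 30, 60 and 240 min hypoxic arrays, against 4.87 to 5.35 and 4.89 to 5.41 on the 0 and 240 min air arrays. A mouse control set the top of the span on every array. AT4G33560 was above that span on 4 arrays and under it at 240 min of hypoxia, AT2G17850 was within it at 60 min of hypoxia and under it on the other 4, and AT4G17670 was within it on all 5. Differences of the dim genes, and any difference that ends near this floor, may be compressed by RMA and may understate a change in transcript. Whether readings within or under the span hold any signal from the transcript was not tested.

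**Figure D1:**
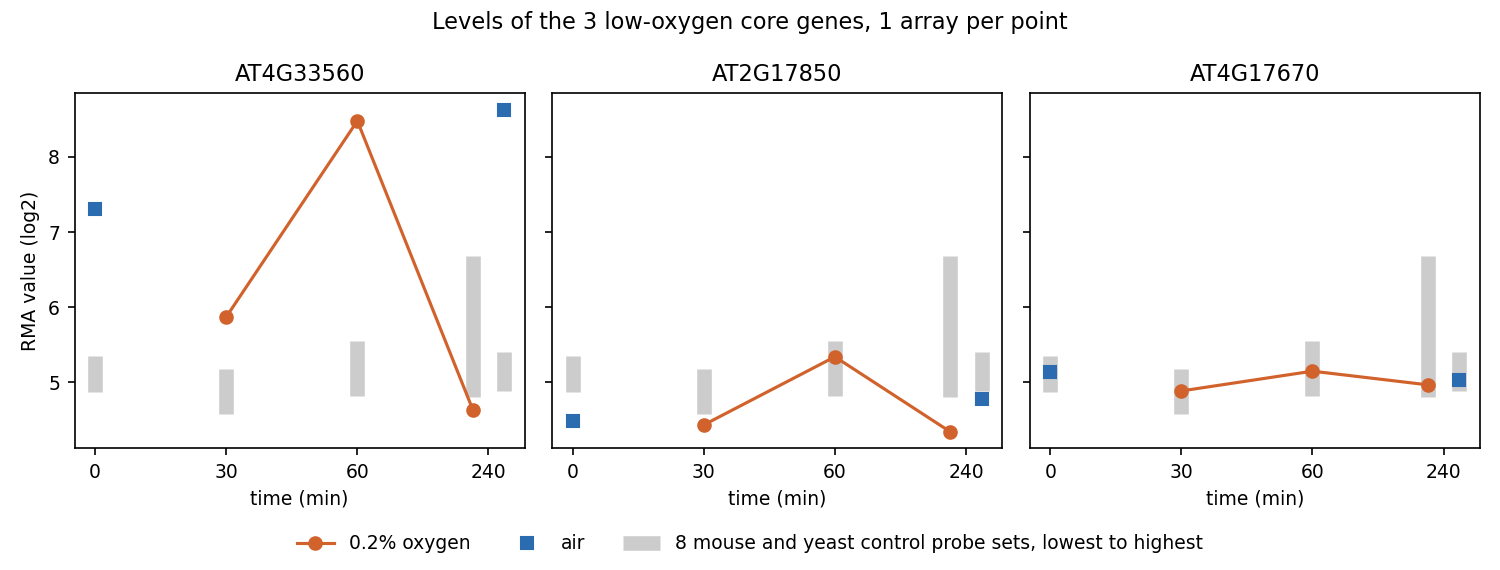
RMA value (log2) of AT4G33560, AT2G17850 and AT4G17670 by time in minutes, with equal spacing between times that are not equally spaced; each orange circle is 1 array in 0.2% oxygen, each blue square 1 array in air, and grey bars run from the lowest to the highest of 8 mouse and yeast control probe sets on that array. AT4G33560 moves between 4.64 and 8.63, while AT2G17850 and AT4G17670 stay at or below the tops of the grey bars.

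After 30 min of hypoxia AT4G33560 was lower than in 0 min air, while the other genes of the set showed little difference. AT4G33560 read 5.87 at 30 min of hypoxia and 7.30 in 0 min air, a difference of −1.43, the 86th lowest of 8247. AT4G17670 differed by −0.25 and AT2G17850 by −0.058, both inside 0.44. A probe set was counted as lower or higher where it differed by 1 or more and reached the array median on either array. AT4G33560 was so counted among the 2 members at that level, against 5.31% of all probe sets at that level that were lower at 30 min. On the 30 min array the shoot markers RCA, LHCB4.1 and PSAN read 13.27, 12.96 and 10.23, against 14.35, 14.02 and 11.68 in 0 min air. LHCB4.3, the dim marker, read 4.77 against 5.07, too small a step to be counted. The summed level of the 4 markers was 14.2 against 15.3, and the part of the markers in the result was not tested. No 30 min air array is among the 5, and against 240 min air the difference of AT4G33560 was −2.76, the 2nd lowest of 8247.

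After 60 min AT4G33560 and AT2G17850 were above 0 min air, by 1.18 and 0.85. For AT4G33560 that is a 2.26-fold difference, from 8.48 in hypoxia and 7.30 in air. AT2G17850 read 5.34 in hypoxia, within the span of the mouse and yeast controls, and 4.49 in air, under it, so the size of its difference is not known. AT4G17670 differed by 0.0092. All 3 genes reached the level required and only AT4G33560 was counted as higher, where 2.37% of all such probe sets were. The choice of air array mattered for AT4G33560 more than for AT2G17850. Set against 240 min air, AT4G33560 at 60 min differed by −0.15 and AT2G17850 by 0.56.

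After 240 min AT4G33560 stood far below time-matched air. It read 4.64 in hypoxia and 8.63 in air, a difference of −3.99 and the 5th lowest of 8247, and against 0 min air the difference was −2.66. AT2G17850 differed from 240 min air by −0.44 and AT4G17670 by −0.065, and neither reached the array median on these arrays. AT4G33560 was the only member at the required level and was counted as lower, where 3.52% of probe sets at that level were lower and 9.68% higher. This comparison rests on the hypoxic array whose mouse controls and 3′ GAPDH excess were the highest, and the part of that in the result was not tested.

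In air alone AT4G33560 was also not constant. It read 8.63 at 240 min and 7.30 at 0 min, a difference of 1.33 that was the 4th highest of 8247. AT2G17850 differed by 0.29 and AT4G17670 by −0.11. Among the 2 members at the required level, AT4G33560 was counted as higher, where only 0.338% of probe sets were. AT4G27450 and PDC2, the other measured core genes, were likewise higher in 240 min than in 0 min air, by 1.36 and 1.16, so that 3 of 5 measured core genes were counted. For AT4G33560 the change in air over 240 min, at 1.33, was as large as its difference between 60 min of hypoxia and 0 min air, at 1.18.

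**Figure D2:**
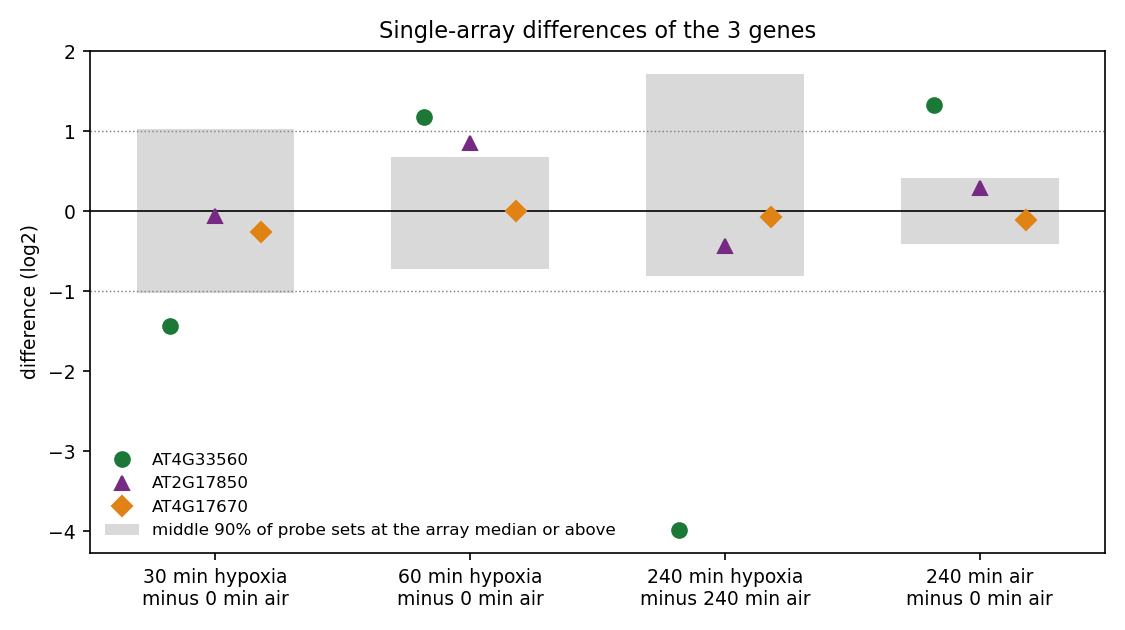
Differences in log2 RMA value between single arrays for the 3 genes, by comparison; grey bars hold the middle 90% of probe sets at the array median or above and dotted lines mark 1 and −1. AT4G33560 lies outside the grey bar in all 4 comparisons, at −1.43, 1.18, −3.99 and 1.33, AT2G17850 only at 60 min, at 0.85, and AT4G17670 in none.

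Across hypoxia as a whole, with the 3 times serving as replicates, none of the 3 genes passed the test. AT4G33560 averaged 6.33 ± 1.96 in hypoxia (SD, n = 3) and 7.97 ± 0.94 in air (SD, n = 2), a difference of −1.64 ± 1.28 (SE), the 7th lowest of 8247 (limma, adjusted p = 0.98, unadjusted p = 0.26). Its 95% interval ran from −5.06 to 1.79, so that a large fall and a rise are both within it. AT2G17850 averaged 4.71 ± 0.55 in hypoxia (SD, n = 3) and 4.64 ± 0.20 in air (SD, n = 2), a difference of 0.071 ± 0.358 (SE; limma, adjusted p = 0.98). Its interval was −0.89 to 1.03. AT4G17670 averaged 5.001 ± 0.135 in hypoxia (SD, n = 3) and 5.09 ± 0.08 in air (SD, n = 2), a difference of −0.085 ± 0.114 (SE; limma, adjusted p = 0.98), with an interval of −0.39 to 0.22. That interval is the narrowest of the 3 and leaves out a 2-fold difference either way on the RMA scale, which may be compressed at this level.

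Over all probe sets limma called 0 of 8247 at an adjusted p under 0.05, or 0%, and 161 at an unadjusted p under 0.05, or 1.95%. Hypoxic and air values overlapped for each of the 3 genes. Over all probe sets the hypoxic arrays were all higher than the air arrays in 5.2% and all lower in 8.16%. The times are not replicates of one state, so the spread in this fit holds change with time as well as variation between samples, and nothing in the labels says whether the samples came from separate cultures.

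The pooled differences depended on single arrays. Without the 60 min array AT4G33560 averaged −2.71 ± 0.71 (SE) below air, at a limma unadjusted p of 0.0267 and an adjusted p of 0.84, and AT2G17850 went to −0.25 ± 0.14 (SE; limma, adjusted p = 0.84). Without the 240 min hypoxic array AT4G33560 was at −0.79 ± 1.12 (SE; limma, adjusted p = 0.86). Leaving out the 240 min air array took it to −0.97 (SE 1.86; limma, adjusted p = 1), and without the 0 min one AT2G17850 went to −0.072 (SE 0.53; limma, adjusted p = 1). The lone air array was then assumed to vary like the hypoxic ones.

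**Figure D3:**
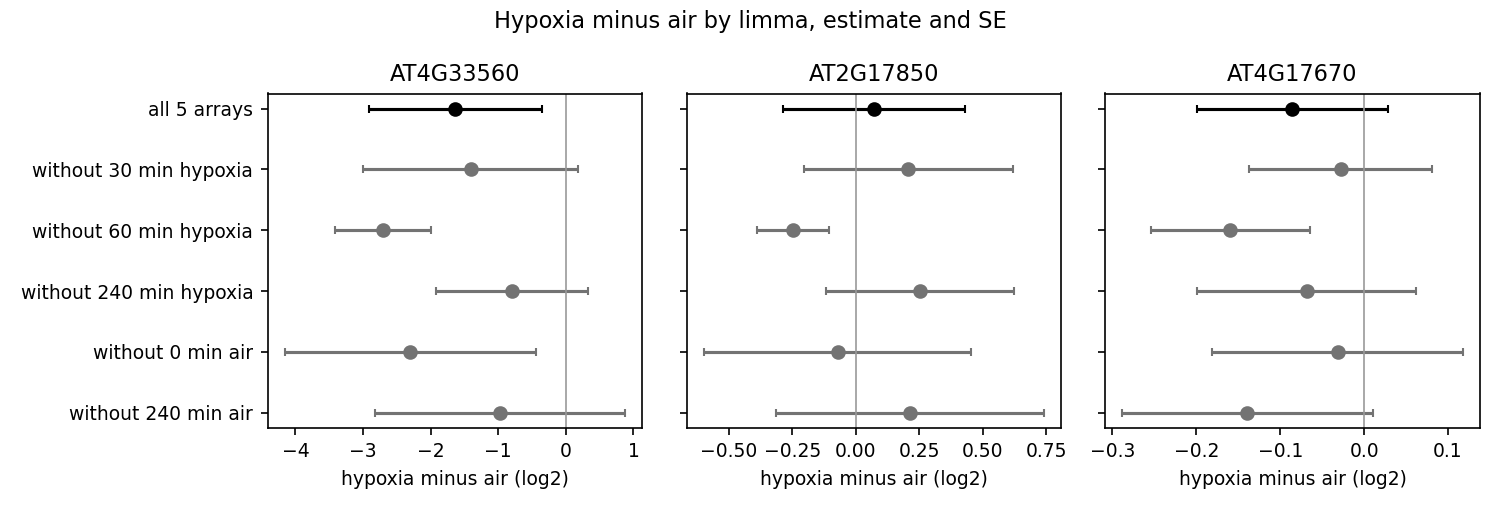
Hypoxia minus air (log2) by limma for each gene, with all 5 arrays in black and with each array left out in grey; points are estimates, bars 1 SE, and the horizontal scales differ between panels. AT4G33560 stays below 0 in every row, from −2.71 to −0.79, and AT2G17850 lies on either side of 0.

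The set was placed beside the other measured genes of the low-oxygen core. Of 51 genes listed, 5 had a named probe set, and the remaining pair were AT4G27450, of the family of aluminium-induced proteins, and the fermentation gene PDC2, for a pyruvate decarboxylase. By limma 0 of the 5 passed in either direction, beside 0% of all probe sets. Relative to the mean of the 2 air arrays, AT4G33560 was at −2.09, 0.51 and −3.33 after 30, 60 and 240 min of hypoxia. AT4G27450 was at −1.88, 2.14 and −2.88, and PDC2 at −0.74, 1.49 and −0.90. AT4G33560 thus had the lowest value of these 3 genes at each time, and AT2G17850 followed the same order of times in a narrower range, at −0.20, 0.71 and −0.29. AT4G17670 was at −0.20, 0.063 and −0.12. With single arrays, none of these differences between genes has a test.

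**Figure D4:**
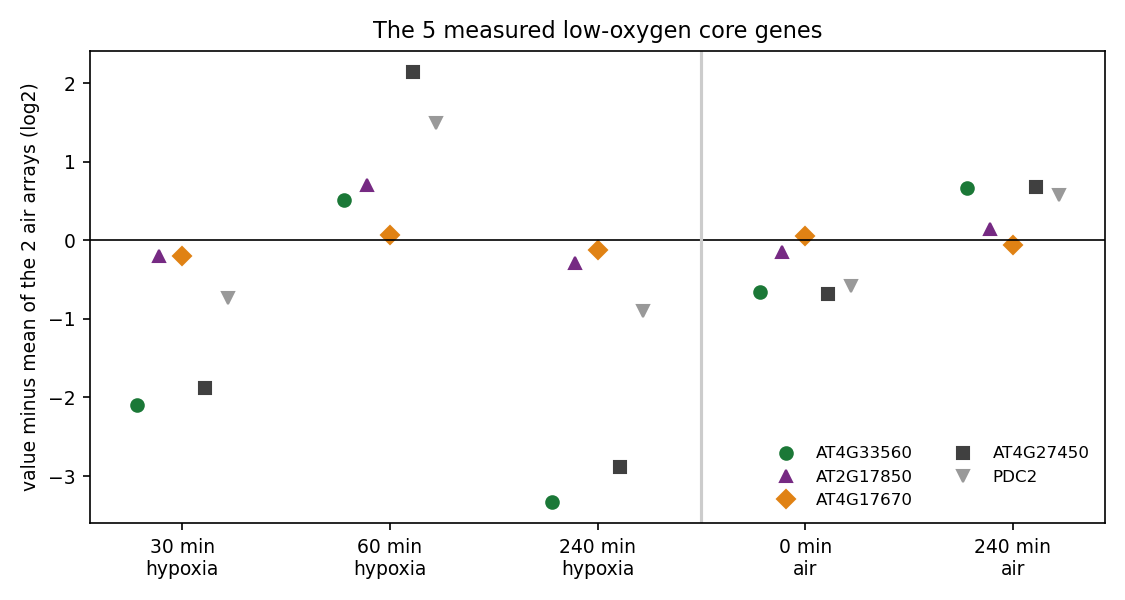
Value minus the mean of the 2 air arrays (log2) for the 5 measured low-oxygen core genes on each array, hypoxia left of the grey line and air right of it. At 60 min the genes run from 0.063 for AT4G17670 to 2.14 for AT4G27450, and at 30 and 240 min AT4G33560, AT4G27450 and PDC2 lie furthest below 0. AT4G17670 stays within 0.44 of 0 on every array, and AT2G17850 on every array but that of 60 min.

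High at 60 min and low at 240 min was a pattern that AT4G33560 shared with other probe sets. These comparisons have no array in common. Of the 106 probe sets higher by 1 or more at 60 min, 35 were lower by 1 or more at 240 min, which is 33.0% of the 60 min list and 21.2% of the 165 probe sets in the 240 min list. Over all probe sets at the required level, 2.37% were higher at 60 min and 3.52% lower at 240 min. AT4G33560, AT4G27450 and PDC2 were 3 of the 35, and AT2G17850 and AT4G17670 were not among them. Of the 35, 9 had a named gene.

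The genes most like AT4G33560 over the 5 arrays were sought among the other 632 named probe sets with a range of 1 or more. They were EXGT-A3, which encodes a xyloglucan endotransglucosylase of the cell wall, at a Pearson r of 0.99, LYC, which encodes the lycopene cyclase of carotenoid synthesis, at 0.97, AT2G47560 at 0.97, AT1G09500 at 0.96 and AT2G20670 at 0.95. Of these 5, 4 are read by probe sets with the suffix _s_at, which can bind related transcripts. Their ranges were narrower than the 3.99 of AT4G33560, from 1.03 for AT1G09500 to 2.75 for AT2G20670. EXGT-A3 read 8.46, 9.34 and 8.14 after 30, 60 and 240 min of hypoxia, against 9.002 and 9.23 at 0 and 240 min in air. AT4G27450 came 11th, at 0.94, and PDC2 28th, at 0.84. All correlations are over 5 arrays that every gene shares and are descriptions only.

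For AT2G17850 the most like of 633 probe sets was another gene of the core, PDC2, at r = 0.98. PDC2 read 5.62, 7.85 and 5.46 after 30, 60 and 240 min of hypoxia, against 5.78 and 6.94 at 0 and 240 min in air. AT1G54740 followed at 0.97, AT2G30620 at 0.97, AT2G22080 at 0.96 and AT2G43540 at 0.96. AT2G30620 is read by a probe set with the suffix _s_at. AT2G17850 itself read within or under the span of the mouse and yeast controls on every array. Whether its pattern holds signal from the transcript was not tested, so these correlations are descriptions only. AT4G27450 was 10th at 0.94 and AT4G33560 58th at 0.78. The range of AT4G17670, at 0.26, was too narrow for such a search.

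Among genes with a rhodanese domain, 6 of 21 listed were measured. At 60 min against 0 min air the other 5 differed by −0.064 to 0.27, beside 0.85 for AT2G17850. At 30 min TROL, a rhodanese-like protein of the thylakoid membrane, was at −1.10 and AT4G27700 at −0.69, where AT2G17850 was at −0.058. At 240 min against 240 min air the other 5 lay between −0.33 and 0.34, beside −0.44 for AT2G17850. By limma 0 of the 6 passed across hypoxia. AT2G17850 was the only one of the 6 that differed by more than 0.44 at 60 min, a difference that has no test. Its reading was under the span of the mouse and yeast controls in 0 min air and within it at 60 min. The size of its difference is therefore not known. The other 5 genes read above the array median on every array.

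The FCS-like zinc finger family had 2 of 17 listed genes measured, AT4G17670 and AT2G44670. AT2G44670 read 5.83, 5.42 and 5.12 after 30, 60 and 240 min of hypoxia, against 6.24 and 5.96 at 0 and 240 min in air. Every hypoxic array was below both air arrays for this gene, as for 8.16% of probe sets, and the difference of −0.64 ± 0.25 (SE) did not pass (limma, adjusted p = 0.98, unadjusted p = 0.054). Of the 7 genes listed for the wound-responsive family, AT4G33560 was the only one measured.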

How the data were processed

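Biotin-labelled cRNA from whole seedlings was hybridised to 1-colour arrays, and the authors deposited log2 values of 8297 probe sets. RMA is the tool that the submitters' processing notes name; its version and a genome build are not given in the sources read, and no coordinates or sequences are printed. After 50 control probe sets were set apart, 8247 were tested. The platform annotation named 3784 probe sets with 1 gene through the TAIR10.1 RefSeq table (45.9%). The hypoxia and air arrays were compared with R 4.3.3 and limma 3.58.1 (lmFit, eBayes, Benjamini-Hochberg over all probe sets). The code was tried on simulated data in which a changed probe set had the same shift on every hypoxic array. The 3 times here are not such replicates, so that trial does not show how well the fit works on these data. Single arrays were compared as differences without a test. The number of arrays limits the precision. Genes named are the 3 members, the measured genes of the core and family lists, and the 5 genes with the highest Pearson r to each member whose range was 0.5 or more. Members, lists and rules were chosen with earlier results of these data known. Alternatives were a second quantile normalization, array weights, a filter on dim probe sets, other air references and leaving out each array. Promoter motifs were not analysed here.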

Additional observations from a re-analysis of the deposited data

Results flagged for a closer look

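With the air arrays used above, the difference between hypoxia and air ran in opposite directions at different times for AT4G33560. The difference between times was not tested, because each time has 1 array. AT4G33560 differed from 0 min air by −1.43 at 30 min and by 1.18 at 60 min, and from 240 min air by −3.99 at 240 min. Against 240 min air its 60 min difference was −0.15, within 0.44. The opposite direction of AT4G33560 at 60 min thus rests on the 0 min air array. AT2G17850 also changed sign, at 0.85 at 60 min and −0.44 at 240 min. The 240 min value is narrowly within 2 SD of the air pair over all probe sets. It is outside 2 SD of the 500 probe sets nearest in air level, which is 0.32. It also rests on readings under the mouse and yeast controls and was −0.15 against 0 min air, so that no reversal is shown for this gene. The 30 and 60 min comparisons share the 0 min air array.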

How the results depend on the processing

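No paired analysis was possible because the arrays carry no replicate numbers and only the 240 min time has both treatments. Of 57 recomputed values of the 3 genes, 54 kept their direction. The 57 include the range of each gene over the arrays, which cannot change sign. All of them reuse the same arrays, so this count does not show how far the directions would hold in new samples. Limma gave 0 probe sets an adjusted p under 0.05 in every fit that kept both air arrays. Fits with a lone air array are not counted here, since that array gives no spread of its own. At an unadjusted p under 0.05 limma counted 243 with array weights and 82 with dim probe sets left out, which tests fewer, against 161. With 1 hypoxic array left out it counted 234 to 410. With 1 array left out, hypoxia minus air ran from −2.71 to −0.79 for AT4G33560, from −0.25 to 0.25 for AT2G17850 and from −0.16 to −0.028 for AT4G17670. AT2G17850 turned negative without the 60 min array, at −0.25, and without 0 min air, at −0.072. With the air arrays averaged, AT4G33560 was at −2.09, 0.51 and −3.33 at 30, 60 and 240 min. With the air arrays exchanged, a choice made after the data were seen, AT4G33560 was at −2.76, −0.15 and −2.66, and AT2G17850 at −0.34, 0.56 and −0.15. Exchanging the air array took away the rise of AT4G33560 at 60 min, since −0.15 is within the 0.44 of the air pair. No reversal is shown there, and the cause was not tested. A threshold of 1.5, which counts fewer by construction, left 185 probe sets at 30 min, 76 at 60 min, 345 at 240 min and 6 in air, against 479, 207, 619 and 25. At 1.5 AT4G33560 was counted only at 240 min, since it differed by −1.43 at 30 min, 1.18 at 60 min and 1.33 in air. The floor of RMA values near 5 limits what AT2G17850, AT4G17670 and the 240 min hypoxic reading of AT4G33560 can show.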

Other observations

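Many probe sets carried exactly the same deposited value on different arrays. The air arrays had 614 identical values among 8247 probe sets, and the other pairs of arrays had 299 to 502. None of the 3 genes had the same value on any pair of arrays.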
